A study of Homo sapiens with 8 samples.

Results

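RNA-seq libraries of the control cells of 2 Ewing sarcoma (EwS) cell lines, SK-N-MC and RD-ES, were compared to describe how the lines differ before any silencing. The 4 control libraries, 2 of each line, were selected by their labels from the 8 libraries of the series. The other 4 came from cells in which dCas9-KRAB, a catalytically dead Cas9 joined to the KRAB repressor domain, was guided to the LOXHD1 enhancer (eKD2, 2 libraries of each line). By the sample labels the control cells of both lines carried an empty lenti-dCas9-KRAB virus without a guide, given at a multiplicity of infection of 10. The labels also give 3 days of selection in puromycin at 1 µg/ml for all cells, which were taken within 5 passages. The titles of the control libraries name them cas9. The paper speaks of the controls as parental cells, and for its enhancer deletion it describes a control virus with Cas9. ZNF10, the gene from which the KRAB domain derives, was at 8.89 and 9.68 FPKM in the RD-ES and 7.65 and 10.2 FPKM in the SK-N-MC control libraries, against 56.1 and 49.0 FPKM in the eKD2 libraries of RD-ES and 65.1 and 59.6 FPKM in those of SK-N-MC. By this gene, chosen after its values were seen, the controls did not carry the KRAB transcript at the level of the eKD2 cells. A virus with Cas9 and no KRAB domain would not show in this gene. Which virus the controls carried, or whether they were parental, is therefore not settled here. Both lines were grown in RPMI-1640 with fetal bovine serum. Each line stands for the tumor cells of 1 patient, carried for many years in culture, so a difference between them is one between 2 lines and not between groups of tumors.

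EwS is a tumor of bone and soft tissue driven by a fusion of EWSR1 with an ETS transcription factor, mostly FLI1. The fusion protein binds GGAA repeats, where it opens chromatin and makes enhancers, and it lowers the expression of many genes of mesenchymal differentiation. EwS cells carry features of neural crest and of mesenchymal stem cells, and neither is agreed to be their only origin. The genes below are ordered by these roles, from fusion targets and lineage factors to metabolism, antigen presentation and growth control.

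Expression was given by the authors as FPKM, the number of reads scaled to the length of the transcript and the size of the library, for 60332 genes. The read totals are not given with the values. From the steps that whole reads leave in the values of low genes, the control libraries were estimated to hold 13.0 and 16.5 M reads (M, 1000000) in RD-ES and 30.1 and 13.2 M reads in SK-N-MC. A gene was tested where its mean over the 4 control libraries was at least 1 FPKM, which left 14945 genes. Values were compared as log2(FPKM + 1) with limma, and a gene was called where the adjusted p (Benjamini-Hochberg) was under 0.05. Every log2 difference is SK-N-MC minus RD-ES on this scale, which makes differences of low genes look smaller than they are. With 2 libraries on each side the smallest two-sided p of an exact permutation test is 0.333, so the p-values come from the limma model and measure the spread between replicate libraries. Values joined by "and" before FPKM are replicates 1 and 2 of a group. The library kit does not mark strand, so reads of genes with overlapping exons cannot be told apart, which concerns ATF5, CCK, CDK4, DDIT3, EIF2AK2, EWSR1, FAS, FZD4, GLI1, GSTM1, GSTM2, HOXC4, KRT18, LAMA5, LEF1, LOX, MEST, MTHFD2, NPY5R, PENK, PSMB8, RNF207, SLC1A5, SNTB1, STAG2, UBD, VLDLR and ZNF544 among the genes named below.

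Both lines carried the genes that mark EwS. CD99, the surface protein used in its diagnosis, was at 586 and 566 FPKM in RD-ES and 201 and 216 FPKM in SK-N-MC. NKX2-2, a homeobox factor needed for growth of EwS cells, was at 24.2 and 29.4 FPKM in RD-ES and 27.6 and 29.1 FPKM in SK-N-MC, and the libraries of the lines overlapped. STEAP1, a metalloreductase of the cell surface, was at 63.2 and 62.4 FPKM in RD-ES and 78.8 and 73.2 FPKM in SK-N-MC. All 7 genes written down as markers of EwS were at 2 FPKM or more in every control library, the lowest being NR0B1 in RD-ES. Of 15 epithelial markers, 3 had a mean of at least 1 FPKM in RD-ES and 4 did in SK-N-MC, with summed levels of 47.5 to 48.3 and 88.8 to 90.8 FPKM. The largest part of these sums was KRT18, a keratin of simple epithelia, at 43.003 and 43.3 FPKM in RD-ES and 50.4 and 54.4 FPKM in SK-N-MC (log2 difference 0.27), a call that was lost with median scaling (0.13) and without any 1 of the 4 libraries (0.22 to 0.33). ESRP1, a splicing regulator of epithelia, was at 2.33 and 2.23 FPKM in RD-ES and 31.6 and 29.5 FPKM in SK-N-MC (log2 difference 3.26). EPCAM, an adhesion molecule of epithelia, was at 0.300 and 0.446 FPKM in RD-ES and 4.03 and 4.54 FPKM in SK-N-MC (log2 difference 1.95). These 3 of the 4 tested epithelial markers were called higher in SK-N-MC, while CDH1, the cadherin of epithelia, was under 0.2 FPKM in all 4 control libraries. The 20 blood and immune markers summed to 10.9 to 12.7 FPKM in RD-ES and 43.2 to 43.97 FPKM in SK-N-MC. The largest part of the SK-N-MC sum was PTPRC (CD45, the phosphatase of blood cells), at 0.0173 and 0.0136 FPKM in RD-ES and 22.6 and 21.5 FPKM in SK-N-MC. AIF1, a marker of macrophages, was at 4.35 and 4.37 FPKM in RD-ES and 9.46 and 10.4 FPKM in SK-N-MC (log2 difference 1.02). CD79A, a chain of the B cell receptor complex, was at 1.60 and 1.66 FPKM in RD-ES and 8.26 and 7.64 FPKM in SK-N-MC (log2 difference 1.77). These 3 of the 4 tested blood markers were called higher in SK-N-MC, while CD3E was listed at 0 in all 4 control libraries and CD14 was under 0.3 FPKM. The 9 endothelial markers in the file summed to 11.0 to 11.4 and 3.55 to 4.46 FPKM. In libraries of bulk RNA, more cells of a kind and more RNA per cell cannot be told apart, and the part of these markers in the differences below was not tested.

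The lines differed in most of the genes tested. Of 14945 genes, 8625 were called (57.7%), 4676 with higher expression in SK-N-MC (31.3%) and 3949 in RD-ES (26.4%). At least 2-fold on the log2 scale, 2071 genes were higher in SK-N-MC (13.9%) and 1536 in RD-ES (10.3%), and these percentages are the background for the members of each list below. Across genes, the RD-ES replicates correlated with r = 0.941 and the SK-N-MC replicates with r = 0.942, and libraries of different lines with r = 0.808 to 0.816 (genes are not independent replicates). The number of calls fell to 4160 without SK-N-MC replicate 1, 4126 without SK-N-MC replicate 2, 6129 without RD-ES replicate 1 and 6027 without RD-ES replicate 2. The split by direction depends on the scaling: after each library was scaled to the same median, 3923 called genes were higher in SK-N-MC and 4697 in RD-ES, and the share of calls with SK-N-MC higher moved from 54.2% to 45.5%. The median log2 difference of all genes moved from 0.075 to -0.051, a shift of -0.13 against which small differences should be read. The eKD2 libraries of the same lines, which share no library with the control comparison, gave 7254 calls (48.5%), but 1424 without SK-N-MC eKD2 replicate 1 and 1620 without SK-N-MC eKD2 replicate 2. Of the 8625 genes called in control cells, 6091 (70.6%) were also called in eKD2 cells, which is 84.0% of the eKD2 calls, and 6072 of them differed in the same direction.

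**Figure D1:**
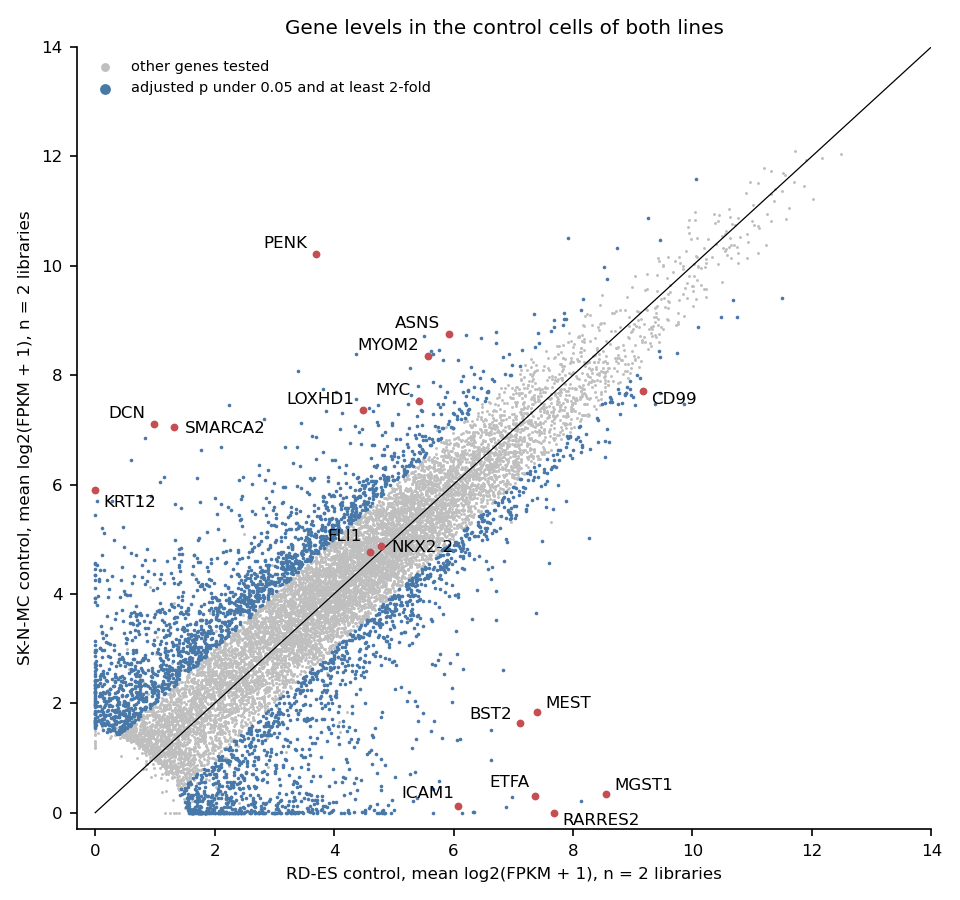
Each point is a gene tested, at its mean log2(FPKM + 1) in the RD-ES control libraries (x axis) and the SK-N-MC control libraries (y axis), with 2 libraries per mean and the line of equal levels in black. Blue points passed an adjusted p of 0.05 and differed at least 2-fold, red points are named genes, and FLI1 and NKX2-2 lie on the line whereas PENK, DCN and KRT12 lie far above and MGST1, RARRES2 and ETFA far below it (genes with transcripts under 200 bases are left out).

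LOXHD1, MYOM2, ASNS and MYC were each higher in SK-N-MC. LOXHD1, which encodes a protein of the stereocilia of hair cells, was at 21.4 and 21.2 FPKM in RD-ES and 159 and 169 FPKM in SK-N-MC, a log2 difference of 2.89 (SE 0.0664, limma adjusted p = 6.3e-04). MYOM2, a protein of the sarcomere, was at 42.0 and 51.4 FPKM in RD-ES and 334 and 315 FPKM in SK-N-MC, with a log2 difference of 2.78 (SE 0.118, limma adjusted p = 8.9e-04). ASNS, the enzyme that makes asparagine, was at 56.1 and 62.9 FPKM in RD-ES and 437 and 422 FPKM in SK-N-MC, with a log2 difference of 2.83 (SE 0.0783, limma adjusted p = 6.4e-04). MYC, a transcription factor of growth, was at 37.0 and 47.4 FPKM in RD-ES and 169 and 198 FPKM in SK-N-MC, with a log2 difference of 2.10 (SE 0.158, limma adjusted p = 0.002). The lowest SK-N-MC library exceeded the highest RD-ES library by a wide margin in all 4 genes. In eKD2 cells the log2 differences between the lines were 2.62, 2.72, 1.90 and 1.81 in the same order of genes. LOXHD1, whose enhancer was targeted there, was lower in the eKD2 cells of both lines, at 1.04 and 1.02 FPKM in RD-ES and 11.0 and 11.95 FPKM in SK-N-MC, and the order of the lines was kept.

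The 12 protein-coding genes with the largest differences in favor of SK-N-MC included secreted and matrix proteins and a chromatin remodeler. PENK, the precursor of enkephalin peptides, was at 12 and 11.9 FPKM in RD-ES and 1166 and 1217 FPKM in SK-N-MC, which was the largest log2 difference of this direction (6.53, SE 0.0569, limma adjusted p = 2.9e-04). DCN (decorin, a proteoglycan that binds collagen) was at 0.695 and 1.30 FPKM in RD-ES and 138 and 134 FPKM in SK-N-MC. The collagen chain COL1A2 was at 0.266 and 0.792 FPKM in RD-ES and 87.1 and 85.1 FPKM in SK-N-MC, and COL21A1, another, at 1.00 and 1.45 FPKM in RD-ES and 67.6 and 72.0 FPKM in SK-N-MC. All 4 RD-ES values of the collagens were under 2 FPKM. LSAMP, an adhesion protein of neurons, was at 0.676 and 0.879 FPKM in RD-ES and 109 and 120.3 FPKM in SK-N-MC. SMARCA2, one of the alternative ATPases of the BAF chromatin remodeling complex, was at 1.07 and 2.01 FPKM in RD-ES and 132 and 132 FPKM in SK-N-MC. IDO1, which degrades tryptophan, had 0.467 and 0 FPKM in RD-ES and 50.6 and 51.2 FPKM in SK-N-MC. GSTM1, a glutathione transferase, had 0.475 and 0.933 FPKM in RD-ES and 52.5 and 55.4 FPKM in SK-N-MC, but its exons overlap those annotated to GSTM2, its near relative, at 53.9 and 51.0 FPKM in RD-ES and 125 and 138 FPKM in SK-N-MC, so the split of reads between them is uncertain. KRT12, GALNT13 and TSTD1 were also among the 12, and the 12 log2 differences ran from 4.97 to 6.53.

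In favor of RD-ES the largest differences reached further. MGST1, a glutathione transferase of membranes, was at 358 and 389.7 FPKM in RD-ES and 0.166 and 0.378 FPKM in SK-N-MC, a log2 difference of -8.21 (SE 0.120, limma adjusted p = 6.1e-04). RARRES2, which encodes the chemoattractant chemerin, was at 186 and 225 FPKM in RD-ES and was listed at 0 in both SK-N-MC libraries. ETFA, a subunit of the flavoprotein that passes electrons from fatty acid oxidation to the respiratory chain, was at 175 and 154 FPKM in RD-ES and 0.536 and 0 FPKM in SK-N-MC. Chemerin and this mitochondrial subunit were thus well expressed in one line and near or at 0 in the other. SYCP1, a protein of meiotic chromosomes, was at 141 and 112 FPKM in RD-ES and 0.335 and 0.127 FPKM in SK-N-MC. ICAM1, an adhesion molecule bound by leukocytes, was at 58.8 and 74.9 FPKM in RD-ES and 0.175 and 0 FPKM in SK-N-MC. The imprinted gene MEST was at 156 and 180.2 FPKM in RD-ES and 2.84 and 2.35 FPKM in SK-N-MC, although its exons overlap those of COPG2. CES1, a carboxylesterase, was at 98.7 and 97.0 FPKM in RD-ES and 0.739 and 1.18 FPKM in SK-N-MC. The other members of the 12 were PKP1, PEG3, PDPN, RNF212 and KRBOX1, and the 12 log2 differences ran from -5.56 to -8.21. All 24 genes kept their direction in eKD2 cells, with limma adjusted p-values there of at most 0.009. They were picked for the largest differences between the same lines, so this is a description only.

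Some genes were on in one line and off in the other. A gene was taken as on in a line where both control libraries were at 5 FPKM or more, and as off where both were at 0.1 FPKM or less, with no test. By this rule 33 genes were on in SK-N-MC and off in RD-ES, and 97 were on in RD-ES and off in SK-N-MC, of 11567 genes at 5 FPKM or more in any control library (0.285% and 0.839%). Without RD-ES replicate 2, 52 genes were on in SK-N-MC alone. In the eKD2 libraries every one of the 33 and of the 97 genes was higher in the line where it was on, without overlap of the libraries, and 19 of the 33 and 73 of the 97 met both limits again. The genes were picked for a wide gap between the same lines, so a lack of overlap there was likely beforehand and is a description only. The off line reached at most 0.594 FPKM in eKD2 cells for the genes of SK-N-MC and 0.751 FPKM for those of RD-ES.

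Among the genes on in SK-N-MC alone, KRT12, a keratin of the cornea, was at 57.1 and 59.8 FPKM and listed at 0 in both RD-ES libraries. GALNT13, which starts O-linked sugar chains in neural cells, was at 48.4 and 54.0 FPKM against 0 and 0.0419 FPKM in RD-ES. Receptors and ion channels of the set were VLDLR, a receptor for lipoproteins and reelin, at 18.3 and 18.3 FPKM, and PIEZO2, a channel opened by touch, at 13.7 and 13.0 FPKM. LMO2, a cofactor of blood cell transcription, was at 14.1 and 14.3 FPKM in SK-N-MC and listed at 0 in RD-ES. PTPRC belongs to the same set, with the values given above. CTNND2, a catenin of neurons, was at 18.9 and 17.0 FPKM, and HSD17B2, which inactivates sex steroids, at 17.8 and 21.0 FPKM. ARHGAP28, EPB41L3, SNTB1 and SHISA9 completed the 12 protein-coding genes with the highest levels. Of the 33 genes, 22 were protein-coding, and 21 were listed at 0 in both RD-ES libraries.

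Among the genes on in RD-ES alone, RARRES2 had the highest level. PKP1 (plakophilin, a protein of desmosomes) was at 116 and 118 FPKM in RD-ES and 0.0647 and 0.0737 FPKM in SK-N-MC. PDPN (podoplanin, a surface glycoprotein of lymphatic vessels) was at 77.1 and 82.5 FPKM in RD-ES and 0.0300 and 0 FPKM in SK-N-MC. The imprinted zinc finger gene PEG3 was at 71.2 and 88.0 FPKM in RD-ES and 0.00775 and 0 FPKM in SK-N-MC. These 3 genes were thus above 70 FPKM in one line and under 0.1 FPKM in the other. TLX1, a homeobox factor of spleen development, was at 24.6 and 30.4 FPKM in RD-ES and 0.0202 and 0.0461 FPKM in SK-N-MC. UBD, a ubiquitin-like protein induced by interferon, was at 32.4 and 27.6 FPKM and COL22A1, a collagen of tissue junctions, at 28.8 and 24.9 FPKM in RD-ES. The remaining members of the 12 were RNF212, KRBOX1, ZNF544, ANO9 and RNF207. Of the 97 genes, 74 were protein-coding, and 47 were listed at 0 in both SK-N-MC libraries. Genes of the Y chromosome are not named here.

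**Figure D2:**
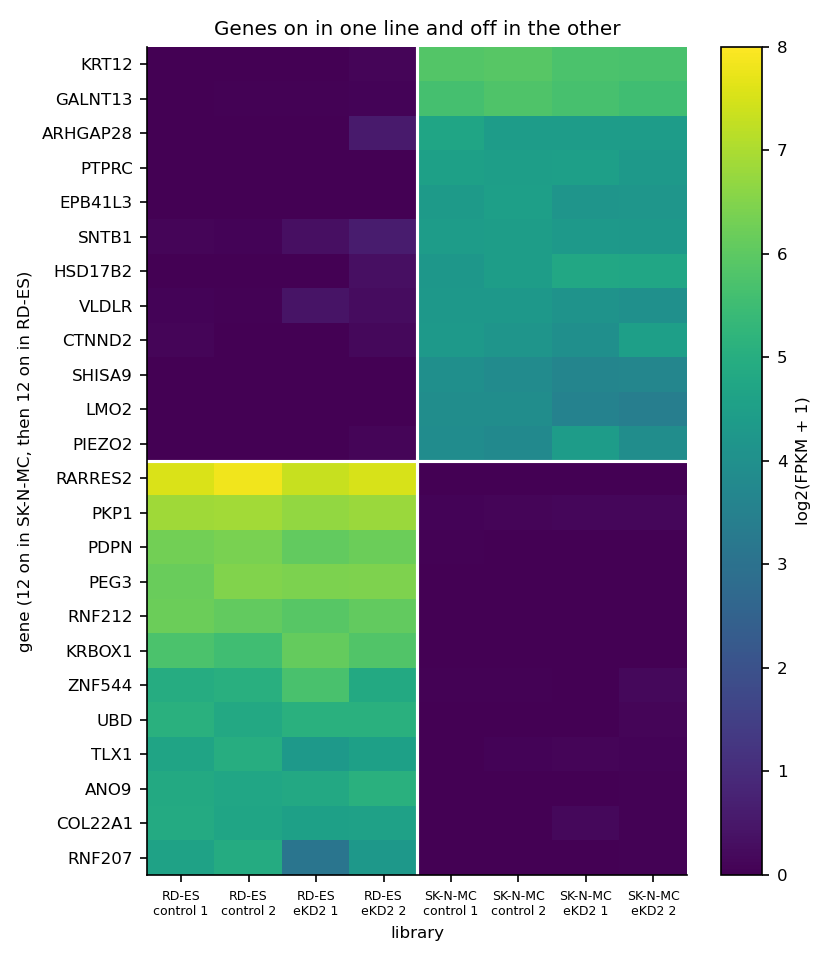
Rows are the 12 protein-coding genes with the highest level among those on in SK-N-MC and off in RD-ES (above the white line) and the 12 among those on in RD-ES and off in SK-N-MC (below it), columns are the 8 libraries, and color is log2(FPKM + 1). Each gene is higher in all 4 libraries, control and eKD2, of the line where it is on than in those of the other line, and RARRES2 in RD-ES is the brightest row.

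The fusion partner genes FLI1 and EWSR1 were not called. FLI1 was at 23.9 and 22.9 FPKM in RD-ES and 25.7 and 26.9 FPKM in SK-N-MC, a log2 difference of 0.16 (SE 0.0753, limma adjusted p = 0.14). EWSR1 was at 182 and 179 FPKM in RD-ES and 173 and 170.1 FPKM in SK-N-MC (log2 difference -0.074, SE 0.0514, limma adjusted p = 0.28). These values count reads of the whole gene, so fusion and wild-type transcripts cannot be told apart. ERG, the other common partner, was at 0 and 0 FPKM in RD-ES and 0.0474 and 0.212 FPKM in SK-N-MC. The other ETS factors differed more, with 6 of 14 tested members called higher in SK-N-MC and 6 in RD-ES (12 in all, but 5 without SK-N-MC replicate 1 and 6 without SK-N-MC replicate 2). Each direction thus held 42.9% of these factors, against 31.3% (SK-N-MC higher) and 26.4% (RD-ES higher) of all genes. ETS1 was at 10.1 and 9.82 FPKM in RD-ES and 0.917 and 0.666 FPKM in SK-N-MC (log2 difference -2.62). ETV1 went the other way, at 0.164 and 0.159 FPKM in RD-ES and 6.63 and 5.89 FPKM in SK-N-MC (log2 difference 2.64).

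Genes that the fusion activates leaned to SK-N-MC, while 18.0% of the tested ones were called higher in RD-ES, against 26.4% of all genes. Of 50 tested members of a list of known fusion-activated genes, 31 were called higher in SK-N-MC (62.0%, against 31.3% of all genes) and 9 in RD-ES (40 in all, but 24 without SK-N-MC replicate 1 and 25 without SK-N-MC replicate 2), with a median log2 difference of 0.47 against 0.075 over all genes. NR0B1 (DAX1), an orphan nuclear receptor, had the largest difference, at 2.38 and 3.77 FPKM in RD-ES and 51.0 and 55.2 FPKM in SK-N-MC (log2 difference 3.75, limma adjusted p = 0.0011). PRKCB, a protein kinase C, was at 11.0 and 13.1 FPKM in RD-ES and 112 and 121 FPKM in SK-N-MC (log2 difference 3.17). These were among the strongest members of the list. BCL11B, a zinc finger repressor, was at 16.6 and 16.1 FPKM in RD-ES and 45.8 and 46.0 FPKM in SK-N-MC (log2 difference 1.43). GLI1, the effector of hedgehog signaling, was at 5.595 and 5.25 FPKM in RD-ES and 20.2 and 26.6 FPKM in SK-N-MC (log2 difference 1.92). CCK, the precursor of cholecystokinin, was at 156 and 189.9 FPKM in RD-ES and 369.7 and 398 FPKM in SK-N-MC (log2 difference 1.15), a call that was lost without SK-N-MC replicate 2 (1.10). Members higher in RD-ES were CD99, with a log2 difference of -1.46, TERT, the catalytic subunit of telomerase, at 9.14 and 9.93 FPKM in RD-ES and 2.64 and 2.38 FPKM in SK-N-MC (-1.59), and LIPI, a lipase, at 62.2 and 56.2 FPKM in RD-ES and 22.2 and 19.6 FPKM in SK-N-MC (-1.46). CD99 also has a copy on the other sex chromosome, which the annotation lists apart.

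The 32 genes of ESS32, the EwS-specific signature of the study, were all above the limit for testing. In SK-N-MC 17 of them were called higher (53.1%, against 31.3% of all genes) and in RD-ES 6 (18.8%, against 26.4%). The median log2 difference was 0.57. The study chose the signature from genes expressed in SK-N-MC and other EwS lines and lowered there by knockdown of the fusion. RD-ES was not among the knockdown lines. A later step used binding data of the fusion in SK-N-MC, among others. Neither the lean of the signature nor its passing of the limit is therefore independent of that choice. KCNA2, a potassium channel, was at 1.40 and 2.05 FPKM in RD-ES and 26.0 and 29.4 FPKM in SK-N-MC (log2 difference 3.404). NPY5R, a receptor of neuropeptide Y, was at 2.37 and 1.87 FPKM in RD-ES and 14.98 and 14.04 FPKM in SK-N-MC (log2 difference 2.32). Together with LOXHD1 and MYOM2 these were the members with the largest differences. In the other direction UGT3A2, a sugar transferase, was at 231 and 237 FPKM in RD-ES and 49.4 and 52.0 FPKM in SK-N-MC (log2 difference -2.19) and VAV1, an exchange factor of blood cells, at 4.46 and 4.79 FPKM in RD-ES and 0.510 and 0.530 FPKM in SK-N-MC (log2 difference -1.89). A run of 3 GGAA units without a gap, searched on both strands, was in 17 of 27305 RefSeq promoters of 300 bases (0.0623%) and in 0 of the 25 of 32 ESS32 genes with a promoter in the table and 0 of 39 such fusion-activated genes. This says only that these letters are not in those windows, and the repeats of distal enhancers lie outside them.

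Genes that the fusion represses leaned to SK-N-MC as well. Of 20 tested members 14 were called higher in SK-N-MC and 3 in RD-ES (17 in all, but 11 without SK-N-MC replicate 2), with a median log2 difference of 1.05. LOX, which crosslinks collagen, was at 0.325 and 0.852 FPKM in RD-ES and 18.7 and 19.6 FPKM in SK-N-MC (log2 difference 3.69). CAVIN1, a coat protein of caveolae, was at 0.359 and 0.465 FPKM in RD-ES and 5.04 and 5.85 FPKM in SK-N-MC (log2 difference 2.19). EPHA2, an ephrin receptor, differed in the opposite direction, at 60.7 and 69.3 FPKM in RD-ES and 9.68 and 8.27 FPKM in SK-N-MC (log2 difference -2.73). DKK1, an inhibitor of WNT signaling, was listed at 0 in all 4 libraries. Activated and repressed targets of the fusion thus both had more members higher in SK-N-MC than in RD-ES.

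**Figure D3:**
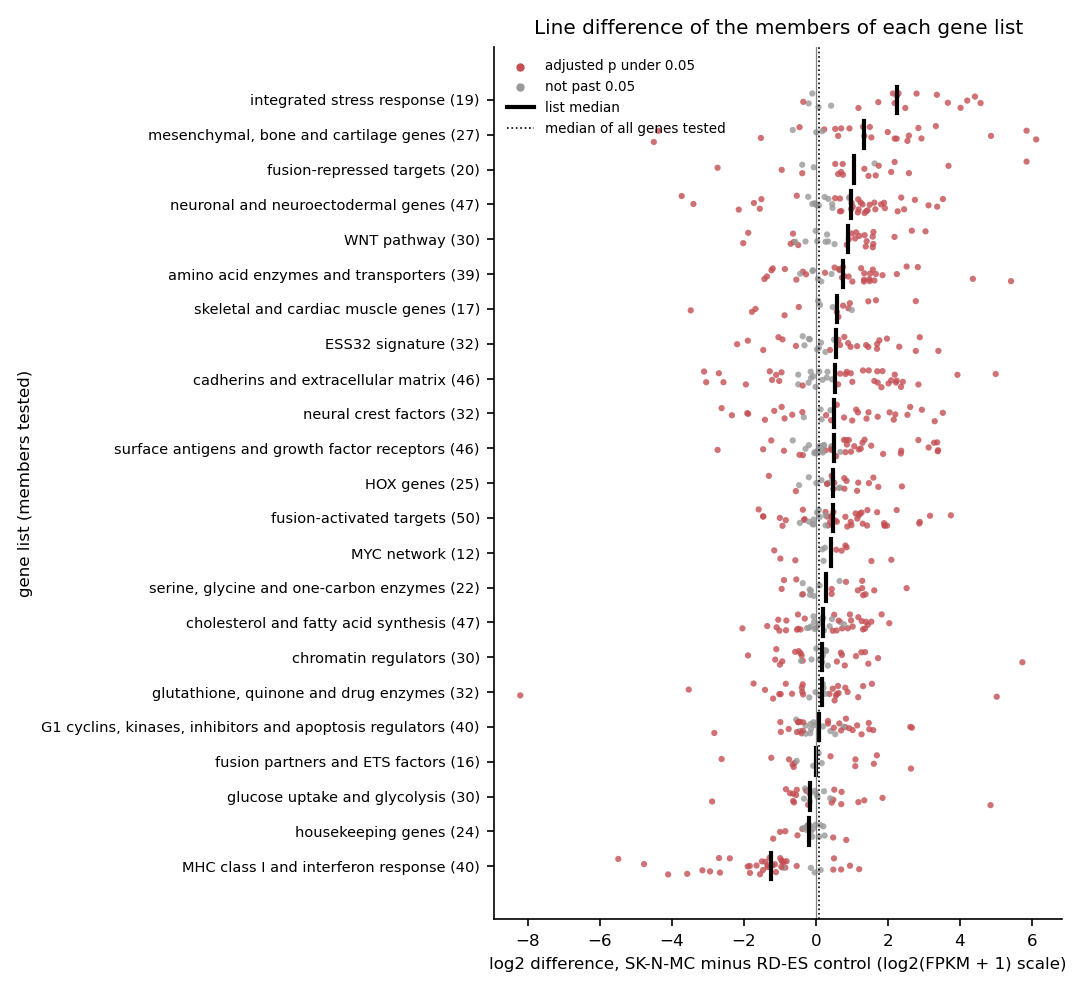
Each point is a tested member of a gene list (rows, with the number tested in parentheses), placed at its log2 difference between the lines in control cells (x axis, positive where SK-N-MC was higher), red where the adjusted p was under 0.05. The black bar is the list median and the dotted line the median of all genes tested (0.075), with the integrated stress response at the top (2.25) and the MHC class I and interferon genes at the bottom (-1.24).

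Lineage factors of the neural crest differed in both directions, with 56.25% of the tested ones called higher in SK-N-MC and 31.25% in RD-ES. The shares over all genes were 31.3% and 26.4%. Of 32 tested members 18 were called higher in SK-N-MC and 10 in RD-ES, and 14 and 6 of these by at least 2-fold (28 in all, but 18 without SK-N-MC replicate 2). The homeobox genes MSX1 and MSX2 were reversed between the lines. MSX2 was at 0.643 and 0.792 FPKM in RD-ES and 19.3 and 18.2 FPKM in SK-N-MC (log2 difference 3.53), whereas MSX1 was at 28.7 and 34.9 FPKM in RD-ES and 5.12 and 5.89 FPKM in SK-N-MC (log2 difference -2.33). The AP-2 factors that specify neural crest were higher in SK-N-MC, with TFAP2A at 2.98 and 3.90 FPKM in RD-ES and 24.6 and 27.9 FPKM in SK-N-MC and TFAP2B at 8.93 and 9.98 FPKM in RD-ES and 103 and 101 FPKM in SK-N-MC. The zinc finger genes ZIC1 and ZIC2 were higher in SK-N-MC, with ZIC1 at 0.919 and 0.357 FPKM in RD-ES and 12.3 and 10.6 FPKM in SK-N-MC and ZIC2 at 26.1 and 28.7 FPKM in RD-ES and 90.8 and 94.2 FPKM in SK-N-MC. SOX10, the factor of migrating neural crest, was listed at 0 in every control library.

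Neuronal and neuroectodermal genes were mostly higher in SK-N-MC where they were expressed at all. Of 88 genes of this list 41 were under the limit for testing, and of the 47 tested 29 were called higher in SK-N-MC and 7 in RD-ES (median log2 difference 0.98). These are 61.7% and 14.9% of the tested members, against 31.3% and 26.4% of all genes. NCAM1, the neural cell adhesion molecule, was at 1.32 and 0.694 FPKM in RD-ES and 20.2 and 18.8 FPKM in SK-N-MC (log2 difference 3.37). S100B, a calcium-binding protein of glia, was at 0.799 and 0.898 FPKM in RD-ES and 20.7 and 20.05 FPKM in SK-N-MC (log2 difference 3.53). Homeobox genes of the developing nervous system were also higher in SK-N-MC, with IRX2 at 0 and 0 FPKM in RD-ES and 7.50 and 8.03 FPKM in SK-N-MC and LHX9 at 1.16 and 1.08 FPKM in RD-ES and 13.3 and 13.2 FPKM in SK-N-MC. RD-ES instead had higher levels of DCX (doublecortin, a protein of migrating neurons), at 12.9 and 12.6 FPKM against 0.0735 and 0.00838 FPKM, and of SOX1, a factor of early neural cells, at 9.26 and 10.1 FPKM against 0 and 0.0285 FPKM. OTX2, a homeobox factor of the forebrain, was also higher in RD-ES, at 41.9 and 39.2 FPKM in RD-ES and 8.32 and 8.52 FPKM in SK-N-MC (log2 difference -2.14).

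Mesenchymal genes were higher in SK-N-MC, and bone and cartilage genes were split. Of 21 tested mesenchymal members 17 were called higher in SK-N-MC and 1 in RD-ES, with a median log2 difference of 1.4998 (0.99 in eKD2 cells). These are 81.0% and 4.76% of the tested members, against 31.3% and 26.4% of all genes. CDH11, a cadherin of mesenchyme, was at 35.7 and 39.9 FPKM in RD-ES and 269.7 and 287 FPKM in SK-N-MC (log2 difference 2.85). COL1A1 was at 5.49 and 7.05 FPKM in RD-ES and 40.7 and 44.2 FPKM in SK-N-MC and COL3A1 at 0.803 and 1.01 FPKM in RD-ES and 53.6 and 55.4 FPKM in SK-N-MC. VIM (vimentin, the filament protein of mesenchymal cells) was at 108 and 119 FPKM in RD-ES and 113 and 115 FPKM in SK-N-MC, with a log2 difference of 0.012 and a limma adjusted p of 0.9. Among bone and cartilage genes, 3 of the 6 tested were called in each direction. ALPL, the alkaline phosphatase of bone, was at 4.44 and 4.496 FPKM in RD-ES and 51.4 and 57.0 FPKM in SK-N-MC (log2 difference 3.33). Cartilage genes were higher in RD-ES, with HAPLN1, a link protein of the matrix, at 27.2 and 26.0 FPKM in RD-ES and 0.463 and 0.209 FPKM in SK-N-MC and COL11A1, a fibril collagen, at 23.8 and 20.3 FPKM in RD-ES and 0.0364 and 0 FPKM in SK-N-MC. SOX9, the factor of cartilage, was under 0.3 FPKM in all 4 libraries.

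Muscle genes and HOX genes, which set position along the body axis, followed. Muscle genes were called higher in SK-N-MC in 47.1% of those tested and in RD-ES in 29.4%, HOX genes in 52.0% and 8.0%. The shares over all genes were 31.3% and 26.4%. In either direction 60.0% of the tested HOX genes were called, against 57.7% of all genes. The factors MYOD1 and MYOG were under 0.1 FPKM in both lines. Of 6 tested sarcomere genes 5 were called higher in SK-N-MC and 0 in RD-ES, among them TNNT1, a troponin, at 26.1 and 22.7 FPKM in RD-ES and 75.6 and 84.2 FPKM in SK-N-MC (log2 difference 1.67). The heart factor NKX2-5 was at 9.98 and 12.4 FPKM in RD-ES and 0.0220 and 0.168 FPKM in SK-N-MC (log2 difference -3.47). Over the whole muscle list 13 of 17 tested genes were called (13 in all, but 8 without SK-N-MC replicate 1 and 8 without SK-N-MC replicate 2). Of 25 tested HOX genes 13 were called higher in SK-N-MC and 2 in RD-ES (15 in all, but 6 without SK-N-MC replicate 1 and 6 without SK-N-MC replicate 2). Summed over the 9 genes of the HOXD cluster, the levels were 111 and 110.4 FPKM in RD-ES and 158 and 159 FPKM in SK-N-MC, while the 11 genes of HOXA summed to 2.19 and 2.73 FPKM in RD-ES and 8.03 and 8.81 FPKM in SK-N-MC. HOXC4 had the largest difference of the list, at 3.13 and 3.996 FPKM in RD-ES and 23.9 and 21.8 FPKM in SK-N-MC (log2 difference 2.39), but shares exons with HOXC6. HOXB9 was higher in RD-ES, at 15.95 and 16.8 FPKM in RD-ES and 5.99 and 6.11 FPKM in SK-N-MC (log2 difference -1.30).

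Genes of the integrated stress response had the highest median of the lists. In this response, kinases of eIF2α raise translation of ATF4, which induces genes for amino acid supply and, with DDIT3 (CHOP), genes of cell death. Of 19 tested members 14 were called higher in SK-N-MC, all by at least 2-fold (73.7%, against 13.9% of all genes), and 1 in RD-ES, with a median log2 difference of 2.25. ATF4 was at 192 and 201 FPKM in RD-ES and 435 and 462 FPKM in SK-N-MC (log2 difference 1.19, limma adjusted p = 0.0011). ATF5, a factor induced by ATF4, was at 19.5 and 19.6 FPKM in RD-ES and 322 and 342 FPKM in SK-N-MC (log2 difference 4.02). CHAC1, which degrades glutathione, was at 3.02 and 3.63 FPKM in RD-ES and 96.9 and 107 FPKM in SK-N-MC, the largest difference of the list (log2 difference 4.58, SE 0.114, limma adjusted p = 6.3e-04). The factors and the glutathione enzyme were thus all higher in SK-N-MC. STC2, a secreted glycoprotein, was at 2.26 and 2.25 FPKM in RD-ES and 65.4 and 72.1 FPKM in SK-N-MC (log2 difference 4.42). TRIB3, a pseudokinase that restrains the response, was at 6.89 and 6.02 FPKM in RD-ES and 73.7 and 77.4 FPKM in SK-N-MC (log2 difference 3.36). DDIT3 was at 40.4 and 43.1 FPKM in RD-ES and 185 and 189.5 FPKM in SK-N-MC (log2 difference 2.14). The member called higher in RD-ES was EIF2AK2 (PKR), one of the eIF2α kinases, at 28.3 and 31.5 FPKM in RD-ES and 23.7 and 22.9 FPKM in SK-N-MC (log2 difference -0.35), a call that was lost without SK-N-MC replicate 1, SK-N-MC replicate 2 or RD-ES replicate 2 (-0.37, -0.33 and -0.27).

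The promoters of CHAC1 and ASNS are shown because both genes differed strongly and hold the composite element that C/EBP and ATF factors bind, TGATGNAA (N is any base). Each run has 300 bases of RefSeq sequence, from 250 bases before to 50 after the transcription start, on the strand of the gene, with the match of either strand in capitals. The CHAC1 promoter matched GRCh37 at chr15:41245419-41245718 (plus strand) and the ASNS promoter at chr7:97501671-97501970 (minus strand).
CHAC1: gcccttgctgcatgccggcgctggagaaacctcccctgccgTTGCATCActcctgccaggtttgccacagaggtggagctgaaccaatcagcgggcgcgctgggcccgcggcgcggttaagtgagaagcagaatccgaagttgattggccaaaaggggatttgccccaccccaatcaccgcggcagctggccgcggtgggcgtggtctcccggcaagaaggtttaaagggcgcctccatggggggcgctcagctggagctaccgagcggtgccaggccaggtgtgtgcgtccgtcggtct
ASNS: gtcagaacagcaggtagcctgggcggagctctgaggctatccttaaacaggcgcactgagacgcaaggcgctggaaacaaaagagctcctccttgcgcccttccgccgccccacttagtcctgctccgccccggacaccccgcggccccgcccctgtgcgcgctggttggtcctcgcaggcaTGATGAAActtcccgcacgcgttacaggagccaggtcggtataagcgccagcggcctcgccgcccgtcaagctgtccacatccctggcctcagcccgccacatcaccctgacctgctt
The element was in 3.67% of 27305 RefSeq promoters of this length, in 3 of the 18 matched stress response genes (ATF3, CHAC1 and PPP1R15B) and in 7 of the 34 matched amino acid genes. Binding was not measured.

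The stress response was also where the line difference itself differed between control and eKD2 cells. By an interaction term over all 8 libraries, added after the values were seen, 28 of 14945 genes had a line difference in control cells that differed from that in eKD2 cells (0.187%), of which 12 have no transcript of 200 bases or more. At an unadjusted p under 0.05 there were 2038. The count was 67 without RD-ES control replicate 1, 55 without RD-ES control replicate 2, 58 without SK-N-MC control replicate 1 and 78 without SK-N-MC control replicate 2. Of the 28, 5 were among the 19 tested members of the stress response list (ATF3, CHAC1, DDIT3, DDIT4 and SESN2), and each kept an adjusted p under 0.05 without any one of the 8 libraries. In eKD2 cells CHAC1 was at 44.3 and 56.3 FPKM in RD-ES and 49.97 and 57.1 FPKM in SK-N-MC, so that its log2 difference of 4.58 in control cells stood beside one of 0.094 in eKD2 cells. SESN2, a stress-induced inhibitor of growth signaling, was at 5.11 and 5.56 FPKM in RD-ES and 28.0 and 27.8 FPKM in SK-N-MC control cells and at 26.9 and 28.3 FPKM in RD-ES and 15.7 and 17.8 FPKM in the SK-N-MC eKD2 cells, and the line with the higher level changed (log2 differences 2.19 and -0.69). ATF3, a stress-induced repressor, did the same, at 11.1 and 8.82 FPKM in RD-ES and 58.4 and 61.8 FPKM in SK-N-MC control cells and at 52.4 and 55.1 FPKM in RD-ES and 37.9 and 36.2 FPKM in the SK-N-MC eKD2 cells. ATF4, ATF5 and TRIB3 kept a difference, with log2 values of 0.88, 3.52 and 2.58 in eKD2 cells. DDIT4, an inhibitor of mTOR signaling, was at 4.42 and 4.26 FPKM in RD-ES and 64.4 and 69.3 FPKM in SK-N-MC control cells and at 20.4 and 21.1 FPKM in RD-ES and 48.5 and 54.8 FPKM in the SK-N-MC eKD2 cells. ATF3, DDIT4 and CTH were chosen after their values were seen.

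**Figure D4:**
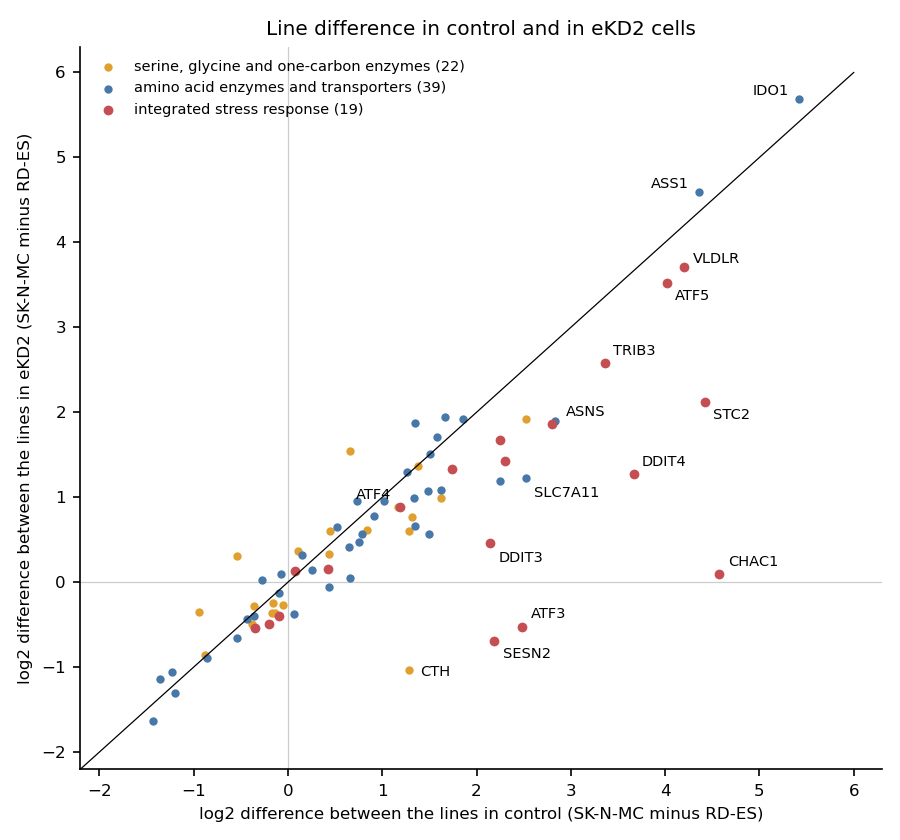
Each point is a tested member of 3 metabolic lists, at its log2 difference between the lines in control cells (x axis) and in eKD2 cells (y axis), both SK-N-MC minus RD-ES, with the line of equal differences in black. Most amino acid genes lie near the line, whereas CHAC1, SESN2, ATF3, DDIT4 and CTH lie far below it.

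Most enzymes and transporters of amino acids were called higher in SK-N-MC, 64.1% against 31.3% of all genes. In RD-ES 20.5% were called higher, against 26.4% of all genes. Of 39 tested enzymes and transporters 25 were called higher in SK-N-MC (64.1%) and 8 in RD-ES (33 in all, but 21 without SK-N-MC replicate 1 and 21 without SK-N-MC replicate 2), with a median log2 difference of 0.76. ASS1, which makes argininosuccinate in the synthesis of arginine, was at 5.86 and 6.39 FPKM in RD-ES and 136 and 156 FPKM in SK-N-MC (log2 difference 4.36, limma adjusted p = 6.3e-04), and the difference was 4.59 in eKD2 cells. SLC7A11, the cystine transporter, was at 10.9 and 11.2 FPKM in RD-ES and 68.2 and 68.3 FPKM in SK-N-MC (log2 difference 2.52). SLC1A5, a glutamine transporter, was at 78.9 and 93.8 FPKM in RD-ES and 237 and 257 FPKM in SK-N-MC (log2 difference 1.51). Enzymes of glutamine and proline synthesis went the other way. GLUL, glutamine synthetase, was at 175 and 188 FPKM in RD-ES and 76.1 and 77.6 FPKM in SK-N-MC (log2 difference -1.23), and ALDH18A1, which starts proline synthesis, at 70.9 and 73.7 FPKM in RD-ES and 27.1 and 25.5 FPKM in SK-N-MC (log2 difference -1.43).

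All 3 enzymes of serine synthesis were called higher in SK-N-MC. PSAT1 was at 72.3 and 73.6 FPKM in RD-ES and 422 and 426 FPKM in SK-N-MC (log2 difference 2.52), PSPH at 48.0 and 42.6 FPKM in RD-ES and 115 and 109 FPKM in SK-N-MC (1.29), and PHGDH, the first enzyme of the path, at 411 and 412 FPKM in RD-ES and 561 and 559 FPKM in SK-N-MC (0.44). MTHFD2, of the mitochondrial folate cycle, was at 139 and 143 FPKM in RD-ES and 355 and 349 FPKM in SK-N-MC (log2 difference 1.31). Over the 19 tested genes of the folate cycle and glycine metabolism, 7 were called higher in SK-N-MC and 4 in RD-ES, a median log2 difference of -0.056. These are 36.8% and 21.1%, against 31.3% and 26.4% of all genes. With serine synthesis included, 14 of 22 were called (14 in all, but 9 without SK-N-MC replicate 1). CTH, which makes cysteine from cystathionine, was at 5.17 and 5.74 FPKM in RD-ES and 15.003 and 14.5 FPKM in SK-N-MC control cells (log2 difference 1.29) and at 25.9 and 25.2 FPKM in RD-ES and 12.01 and 11.9 FPKM in the SK-N-MC eKD2 cells (-1.04).

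Genes of cholesterol supply were more often called higher in SK-N-MC than in RD-ES. Of 24 tested cholesterol genes 12 were called higher in SK-N-MC and 4 in RD-ES, with a median log2 difference of 0.63 in control and 0.00063 in eKD2 cells. HMGCS1, an early enzyme of the pathway, was at 23.2 and 21.9 FPKM in RD-ES and 70.1 and 64.9 FPKM in SK-N-MC (log2 difference 1.54, and 0.44 in eKD2 cells). It did not pass the interaction term (limma adjusted p = 0.15). FASN, fatty acid synthase, was at 129 and 146 FPKM in RD-ES and 75.9 and 60.5 FPKM in SK-N-MC (log2 difference -1.01), a call that was lost without RD-ES replicate 1 (-1.10) or 2 (-0.92). Over cholesterol and fatty acid genes together 30 of 47 tested were called (30 in all, but 18 without SK-N-MC replicate 1 and 19 without SK-N-MC replicate 2). In either direction 63.8% of this combined list was called, close to the 57.7% of all genes. ACSS1, which activates acetate in mitochondria, was at 5.29 and 5.64 FPKM in RD-ES and 0.535 and 0.615 FPKM in SK-N-MC (log2 difference -2.04).

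Genes of glucose uptake and glycolysis were split between the lines. Of 30 tested genes 9 were called higher in SK-N-MC and 11 in RD-ES (20 in all, but 9 without SK-N-MC replicate 1, 8 without SK-N-MC replicate 2, 10 without RD-ES replicate 1 and 10 without RD-ES replicate 2), with a median log2 difference of -0.17. HK1, a hexokinase, was at 50.8 and 57.1 FPKM in RD-ES and 5.80 and 7.18 FPKM in SK-N-MC (log2 difference -2.88, limma adjusted p = 9.6e-04), whereas HK2 was at 24.4 and 22.4 FPKM in RD-ES and 23.7 and 23.6 FPKM in SK-N-MC (log2 difference 0.017, limma adjusted p = 0.87). PCK2, the mitochondrial enzyme that makes phosphoenolpyruvate, was at 3.33 and 1.71 FPKM in RD-ES and 94.6 and 101 FPKM in SK-N-MC (log2 difference 4.85, and 2.42 in eKD2 cells). LDHA, lactate dehydrogenase, was at 669 and 701 FPKM in RD-ES and 1065 and 1189.9 FPKM in SK-N-MC (log2 difference 0.72). Of the glutathione, quinone and drug enzymes 13 of 32 tested were called in each direction (26 in all, but 14 without SK-N-MC replicate 1, 14 without SK-N-MC replicate 2, 17 without RD-ES replicate 1 and 15 without RD-ES replicate 2). Each direction thus held 40.6% of these enzymes, against 31.3% (SK-N-MC higher) and 26.4% (RD-ES higher) of all genes. Beside MGST1, RD-ES had more GSTP1, the main soluble glutathione transferase of many tumors, at 1332 and 1509.7 FPKM against 511 and 556 FPKM (log2 difference -1.41), and more AKR1B1, an aldose reductase, at 66.9 and 74.3 FPKM against 4.69 and 5.75 FPKM (log2 difference -3.53).

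Antigen presentation and interferon genes were higher in RD-ES. Of 40 tested members 31 were called higher in RD-ES (77.5%, against 26.4% of all genes), 23 of them by at least 2-fold, and 5 in SK-N-MC, with a median log2 difference of -1.24 (-0.93 in eKD2 cells). BST2 (tetherin, which holds viruses at the cell surface) was at 135 and 142 FPKM in RD-ES and 1.02 and 3.78 FPKM in SK-N-MC (log2 difference -5.48, SE 0.447, limma adjusted p = 0.0023). OAS3, which makes the activator of an antiviral ribonuclease, was at 63.6 and 72.9 FPKM in RD-ES and 1.16 and 1.97 FPKM in SK-N-MC (log2 difference -4.77). MB21D1 (cGAS), the sensor of DNA in the cytosol, was at 11.8 and 11.0 FPKM in RD-ES and 0.0111 and 0.0758 FPKM in SK-N-MC (log2 difference -3.57). All 3 were at low levels in SK-N-MC. PSMB8, a subunit of the immunoproteasome, was at 19.01 and 19.6 FPKM in RD-ES and 0.288 and 0.0919 FPKM in SK-N-MC (log2 difference -4.10).

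The class I genes were not uniform. HLA-B was at 968 and 895 FPKM in RD-ES and 173 and 182 FPKM in SK-N-MC (log2 difference -2.39), whereas HLA-C was at 41.1 and 50.3 FPKM in RD-ES and 45.3 and 43.8 FPKM in SK-N-MC (log2 difference -0.031, limma adjusted p = 0.84). HLA-E and HLA-F, class I genes of limited variation, were called higher in SK-N-MC, HLA-E at 19.1 and 21.0 against 14.2 and 13.4 FPKM (log2 difference 0.51) and HLA-F at 13.1 and 18.2 against 8.82 and 9.44 FPKM (log2 difference 0.70). The call of HLA-E was lost without any 1 of the 4 libraries (0.44 to 0.57). That of HLA-F was lost without SK-N-MC replicate 2 (0.48) or RD-ES replicate 1 (0.66) or 2 (0.75), with no filter on low values (0.70), and with median (0.57) or quantile (0.55) scaling. B2M, the light chain that class I molecules share, was at 2498 and 2317 FPKM in RD-ES and 1303 and 1373 FPKM in SK-N-MC (log2 difference -0.85). HLA genes are near copies of each other and vary between people, so reads may be lost or shared between them in a way that differs between the lines. NLRC5, the activator of class I transcription, was at 3.502 and 3.25 FPKM in RD-ES and 0.142 and 0.710 FPKM in SK-N-MC (log2 difference -1.65), a call that was lost without RD-ES replicate 1 or 2 (-1.60 and -1.69).

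The promoters of BST2 and OAS3 are shown as the members of this list with the largest differences. Capitals mark the core of the interferon-stimulated response element, searched on both strands as GAAA, any 2 bases and GAAA again, where a match may overlap another. The BST2 promoter matched GRCh37 at chr19:17516390-17516689 (minus strand) and the OAS3 promoter at chr12:113376029-113376328 (plus strand).
BST2: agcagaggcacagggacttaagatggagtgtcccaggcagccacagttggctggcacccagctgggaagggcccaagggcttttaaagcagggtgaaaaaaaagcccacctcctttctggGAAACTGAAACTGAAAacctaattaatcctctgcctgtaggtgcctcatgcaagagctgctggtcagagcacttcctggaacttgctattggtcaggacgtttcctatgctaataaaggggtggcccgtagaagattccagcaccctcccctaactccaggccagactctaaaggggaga
OAS3: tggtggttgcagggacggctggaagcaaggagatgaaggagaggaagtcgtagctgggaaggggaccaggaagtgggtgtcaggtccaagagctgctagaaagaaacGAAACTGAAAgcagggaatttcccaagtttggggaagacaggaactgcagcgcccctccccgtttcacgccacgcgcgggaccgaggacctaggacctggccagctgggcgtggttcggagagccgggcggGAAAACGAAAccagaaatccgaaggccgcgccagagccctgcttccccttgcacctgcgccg
Both hold 2 matches, and those of BST2 overlap. The element was in 3.65% of all RefSeq promoters of this length and in 19 of the 31 list members with a promoter in the table, many of which were listed for their response to interferon. A match is a description and not a bound site.

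Growth control genes differed in both directions. Of 12 tested genes of the MYC network 6 were called higher in SK-N-MC and 3 in RD-ES (9 in all, but 3 without SK-N-MC replicate 1, 3 without SK-N-MC replicate 2 and 5 without RD-ES replicate 1). MYCN, the neural relative of MYC, was higher in RD-ES, at 6.79 and 6.51 FPKM against 2.31 and 2.58 FPKM (log2 difference -1.15), where MYC was lower. CDKN1A, an inhibitor of cyclin-dependent kinases, was at 1.41 and 2.25 FPKM in RD-ES and 1.89 and 1.51 FPKM in SK-N-MC, and the libraries overlapped. Of 20 tested G1 genes 10 were called higher in SK-N-MC and 4 in RD-ES. RB1, the retinoblastoma protein, was at 22.04 and 18.7 FPKM in RD-ES and 58.7 and 58.6 FPKM in SK-N-MC (log2 difference 1.49), and CDKN1C, another kinase inhibitor, at 0.378 and 0.119 FPKM in RD-ES and 6.85 and 6.94 FPKM in SK-N-MC (log2 difference 2.67). CDK4 was higher in RD-ES, at 532 and 549 FPKM against 325 and 316 FPKM (log2 difference -0.75). Among apoptosis regulators, 6 of 20 were called higher in SK-N-MC and 7 in RD-ES, and with the G1 genes 27 of 40 were called in either direction (27 in all, but 13 without SK-N-MC replicate 1, 13 without SK-N-MC replicate 2 and 17 without RD-ES replicate 1). In either direction 67.5% of this combined list and 75% of the MYC network were called, against 57.7% of all genes. Of the apoptosis regulators 30% were called higher in SK-N-MC and 35% in RD-ES, against 31.3% and 26.4% of all genes. BCL2, which blocks apoptosis, was at 2.08 and 2.19 FPKM in RD-ES and 8.28 and 8.65 FPKM in SK-N-MC (log2 difference 1.59), and FAS, a death receptor, at 16.9 and 18.0 FPKM in RD-ES and 1.98 and 1.65 FPKM in SK-N-MC (log2 difference -2.72).

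Growth factor signaling genes leaned to SK-N-MC, with 66.7% of the tested receptors and ligands called higher there and 4.17% in RD-ES. The shares over all genes were 31.3% and 26.4%. Of 24 tested receptors and ligands 16 were called higher in SK-N-MC and 1 in RD-ES, and with the surface antigens 31 of 46 were called (31 in all, but 19 without SK-N-MC replicate 1 and 20 without SK-N-MC replicate 2). The ligand IGF1 was at 5.10 and 5.18 FPKM in RD-ES and 67.9 and 59.7 FPKM in SK-N-MC (log2 difference 3.397), its receptor IGF1R at 18.1 and 13.7 FPKM in RD-ES and 36.2 and 41.5 FPKM in SK-N-MC (1.25, a call that was lost without SK-N-MC replicate 1 or 2, at 1.34 and 1.15), and the binding protein IGFBP5 at 2.14 and 2.58 FPKM in RD-ES and 32.3 and 31.1 FPKM in SK-N-MC (3.29). ERBB4, a receptor of neuregulins, was at 0.208 and 0.0972 FPKM in RD-ES and 10.1 and 12.04 FPKM in SK-N-MC (log2 difference 3.38). In the WNT pathway 16 of 30 tested genes were called higher in SK-N-MC and 6 in RD-ES (22 in all, but 12 without SK-N-MC replicate 1 and 13 without SK-N-MC replicate 2). LEF1, which carries the WNT signal to DNA, was at 3.83 and 4.76 FPKM in RD-ES and 41.4 and 43.8 FPKM in SK-N-MC (log2 difference 3.05). Of the WNT receptors, FZD5 was higher in SK-N-MC, at 0.565 and 0.620 FPKM in RD-ES and 8.97 and 9.25 FPKM in SK-N-MC, and FZD4 in RD-ES, at 21.6 and 21.4 FPKM in RD-ES and 4.78 and 4.38 FPKM in SK-N-MC. AXIN2, a target of the pathway, was at 3.15 and 3.38 FPKM in RD-ES and 3.70 and 4.97 FPKM in SK-N-MC (log2 difference 0.31, limma adjusted p = 0.19).

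Cell adhesion, chromatin and germline genes completed the comparison. Of 46 tested cadherins and matrix genes 23 were called higher in SK-N-MC and 11 in RD-ES. COL16A1 was at 11.7 and 14.4 FPKM in RD-ES and 209 and 218 FPKM in SK-N-MC (log2 difference 3.93), while FBN2, a fibrillin, was at 11.9 and 13.3 FPKM in RD-ES and 0.638 and 0.532 FPKM in SK-N-MC (-3.10) and LAMA5, a laminin, at 16.01 and 15.5 FPKM in RD-ES and 1.44 and 1.76 FPKM in SK-N-MC (-2.69). Chromatin regulators had 10 of 30 tested members called in each direction (20 in all, but 13 without SK-N-MC replicate 2). Each direction thus held 33.3% of the chromatin regulators, against 31.3% (SK-N-MC higher) and 26.4% (RD-ES higher) of all genes. STAG2, a cohesin subunit, was at 53.8 and 50.9 FPKM in RD-ES and 166 and 186 FPKM in SK-N-MC (log2 difference 1.73) and DNMT3B, a DNA methyltransferase, at 17.9 and 18.8 FPKM in RD-ES and 4.17 and 4.31 FPKM in SK-N-MC (-1.88). Of the 44 cancer-testis antigen genes in the file 5 were tested, and PRAME was at 69.2 and 75.2 FPKM in RD-ES and 34.1 and 38.0 FPKM in SK-N-MC (log2 difference -0.98). For comparison, 2 of 24 housekeeping genes were called higher in SK-N-MC and 8 in RD-ES, with a median log2 difference of -0.18 and 41.7% called (10 in all, but 6 without SK-N-MC replicate 1 and 6 without RD-ES replicate 2).

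The line difference also varied by chromosome. On chromosome 8 the 544 genes tested had a median log2 difference of 0.79, with 68.2% called higher in SK-N-MC and 7.54% in RD-ES, against 32.7% and 26.6% over all autosomes. Chromosomes 18, 13 and 14 had medians of 0.72, 0.67 and 0.61. The lowest medians were on chromosome 10 (-0.51, with 50.1% called higher in RD-ES), chromosome 11 (-0.33) and chromosome 21 (-0.29). The eKD2 libraries had medians of 0.70 on chromosome 8 and -0.57 on chromosome 10. Of the called genes named above, MYC, MYOM2, PENK, IDO1, SNTB1 and ESRP1 on chromosome 8 were higher in SK-N-MC, but COL22A1 there was higher in RD-ES. On chromosome 10 TLX1, FAS, HK1 and ALDH18A1 were higher in RD-ES, but DDIT4 in SK-N-MC. On chromosome 18 LOXHD1, ARHGAP28, EPB41L3, PIEZO2 and BCL2 were higher in SK-N-MC. Copy number was not measured, and genes of a chromosome are not independent of each other.

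**Figure D5:**
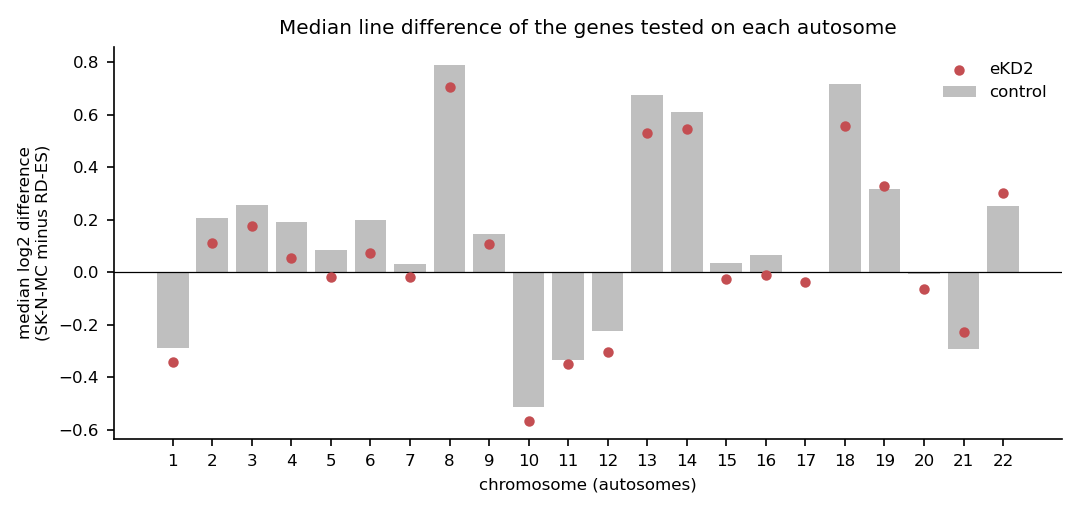
Bars give, for each autosome (x axis), the median log2 difference between the lines over the genes tested in control cells (y axis, positive where SK-N-MC was higher), and red points the same median in eKD2 cells. Chromosomes 8, 13, 14 and 18 have the highest medians and chromosomes 1, 10, 11, 12 and 21 the lowest, in control and in eKD2 cells.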

How the data were processed

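RNA-seq of 8 libraries was used, of which the 4 control libraries made the main comparison. The authors deposited FPKM values per gene (STAR 2.5.1 alignment, cufflinks and cuffnorm, GRCh37, GENCODE release 27, from single-end reads of 75 bases made with a poly-A kit that does not mark strand). Read counts, which the DESeq2 test of the authors needs, were not used here. Groups came from the sample labels. The values were compared as log2(FPKM + 1) with limma 3.58.1 (R 4.3.3, prior variance trend, Benjamini-Hochberg adjusted p), after a filter of mean FPKM at least 1 over the 4 control libraries, and the fit was tested on simulated data. The same fit was run on the 4 eKD2 libraries, and an interaction term on all 8. Gene positions came from GENCODE version 44 lifted to GRCh37 (59138 of 60332 IDs matched). Promoters came from RefSeq (GRCh38.p14), each printed one with 1 exact match in GRCh37.

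Read totals were estimated from whole-read steps in the FPKM values, of which 74.6 to 82.6% lay within 0.05 of a whole read. The paper calls the replicates biological duplicates.

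The 4 leading genes, the members and the 28 gene lists were chosen with earlier results of these data known, so their counts are descriptions. Named genes were the 4 given ones, the 12 protein-coding genes with the largest difference and the 12 with the highest level among on/off genes in each direction, and, for each list, its core members and up to 4 called members per direction. Genes of the Y chromosome and some other genes are not reported here. Alternatives were other pseudocounts (0.1 and 5), filters, scalings, a fit on all 8 libraries, no variance trend, a replicate block, and leaving out each library.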

Additional observations from a re-analysis of the deposited data

Results flagged for a closer look

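The line difference itself differed between control and eKD2 cells for 6 of the genes named, by the interaction term of the limma fit over all 8 libraries. The difference in control cells minus that in eKD2 cells was 4.48 on the log2 scale for CHAC1 (adjusted p = 0.0017), 2.88 for SESN2 (adjusted p = 0.0017), 3.01 for ATF3 (adjusted p = 0.0019), 2.40 for DDIT4 (adjusted p = 0.0019), 2.32 for CTH (adjusted p = 0.0019) and 1.68 for DDIT3 (adjusted p = 0.0050). These are genes of the integrated stress response or, for CTH, of cysteine synthesis. The term was added after the values were seen. Each of these genes was lower in the RD-ES control libraries than in both RD-ES eKD2 libraries, and higher in the SK-N-MC control libraries than in both SK-N-MC eKD2 libraries.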

How the results depend on the processing

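Without 1 control library at a time, the calls numbered 4126 to 6129 against 8625 (SK-N-MC higher 2116 to 3396, RD-ES higher 1988 to 2807), with an arm of 1 library assumed to vary like the other. Without 1 eKD2 library the calls numbered 1424 to 5024 (SK-N-MC higher 746 to 2618, RD-ES higher 678 to 2406, at least 2-fold 1324 to 3217). The 3607 genes at least 2-fold apart became 1815 with a pseudocount of 5, which shrinks the difference of low genes, and 2313 with a mean of at least 5 FPKM, which tests fewer genes. The counts of on/off genes follow their limits: 174 (SK-N-MC) and 343 (RD-ES) with on at 1 FPKM, 20 and 50 with on at 10 FPKM, 78 and 166 with off at 0.5 FPKM, 21 and 47 with off only where listed at 0, and 41 to 52 for SK-N-MC without 1 library. Of the 33 genes on in SK-N-MC, 19 met the limits in eKD2 cells too. The replicate numbers did not pair the libraries (r = 0.051 between same-numbered deviations in control and 0.074 in eKD2 cells), and a replicate block gave 7904 control calls, 6742 eKD2 calls and 18 interaction calls against 28, while leaving out 1 library gave 19 to 78 of the latter, and the cause was not tested. Without 1 control library, differences near 0 changed sign and ran from -0.27 to 0.16 for CDKN1A, -0.043 to 0.077 for HK2, -0.17 to 0.11 for HLA-C, -0.051 to 0.22 for NKX2-2, -0.058 to 0.082 for VIM and -0.25 to 0.13 for ZNF10. Median scaling reversed HK2 (-0.12), NKX2-2 (-0.053) and VIM (-0.13), and quantile normalization HK2 (-0.068). Over the 157 tested genes named, 2135 of 2184 values kept their direction and side of the threshold, 37 lost their call, and EWSR1 was called with median scaling (-0.22). The gap in depth between SK-N-MC replicates 1 and 2 leaves low values of replicate 2 less precise.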
